A study of Homo sapiens with 9 samples.

Results

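Aminoacyl-tRNA synthetases are the enzymes that join each amino acid to its transfer RNA and so supply the ribosome with charged tRNA. Human cells keep one set for the cytosol and another for the mitochondrion, both encoded in the nucleus and mostly by separate genes, with GARS1 and KARS1 each serving both compartments. Several cytosolic enzymes sit in a multi-enzyme complex held together by the scaffold proteins AIMP1 and AIMP2. When uncharged tRNA builds up, the kinase GCN2 raises translation of the transcription factor ATF4, and many cytosolic synthetase genes, but few mitochondrial ones, are known ATF4 targets through a promoter motif called the C/EBP-ATF response element.

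The set described here was taken by gene symbol and holds 37 of the 57500 genes counted: 19 cytosolic synthetase genes, 16 mitochondrial ones and the 2 scaffold genes AIMP1 and AIMP2. All 37 passed the filter on low counts. The rule uses names and no measured value, though the set was proposed with earlier results of these data known. They were read in BJAB, a human B-cell line grown in laboratories, with a genotype labelled as Burkitt lymphoma tumor. The receptor studied is TACI, the product of TNFRSF13B, which binds the cytokines BAFF and APRIL and which B cells make in a long and a short form. Polyadenylated RNA was sequenced from 3 libraries of the line itself (parental), 3 of the line with the long form (TACI long) and 3 of the line with the short form (TACI short), all of them untreated and sorted. The titles call the modified lines stable transfectants and the design text calls them transduced. The promoter of the transgene and whether each line is a single clone are not given in the sources used here. The labels do not say whether the parental line carries an empty vector, so an effect of the vector and of the TACI form cannot be told apart in the comparisons with it. The labels leave unsaid whether a group's replicates were grown apart. The p-values therefore reflect spread among these libraries alone, and part or all of it may be technical.

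TNFRSF13B measured 28.8, 15.2 and 14.6 CPM (counts scaled to the library's total count) in the parental libraries, 691, 704 and 738 in TACI long and 2964, 2965 and 2655 in TACI short. Counts per gene do not separate the 2 forms, so form and transgene amount differ together between the lines. Total counts per library ran from 40322136 to 50079203. TACI short replicates 2 and 3 stood apart, with 32882 and 32209 genes holding at least 1 count against 24307 to 25938 in the other 7 libraries. In the same 2 libraries the summed level of 8 myeloid markers was 124 and 119.8 CPM, against 11.2 to 28.5 in the other 7, with CSF1R the highest at 57.8 and 56.7 CPM and S100A8 at 0 in every library. The 6 B-cell markers were present in every group (summed means of 3732, 3295 and 3009 CPM for parental, TACI long and TACI short). The 6 T- and NK-cell markers summed to at most 3.77 CPM, and EPCAM supplied most of the epithelial and fibroblast signal (95.8, 114 and 74.7 of 101, 117 and 85.2 CPM). Of the fibroblast markers, COL1A1 measured 11 and 10.2 CPM in TACI short replicates 2 and 3 against 1.5 to 3.24 elsewhere, and DCN averaged 2.87, 0.432 and 2.29 CPM in parental, TACI long and TACI short. In bulk RNA, fewer cells of a type and less RNA per cell cannot be told apart. The part of the myeloid and fibroblast marker signal in the results was not tested, and counts of members called in TACI short are also given without those 2 libraries.

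Levels below are CPM of each library's total count, and fold changes come from the edgeR quasi-likelihood fit over all 16672 genes that passed the filter, scaled with TMM factors with a gene called where its adjusted p (Benjamini-Hochberg) was under 0.05. The TMM factors were 1.03, 1.096 and 1.061 in TACI short and 0.962 to 0.98 elsewhere. A ratio of CPM values therefore overstates the fitted rises in TACI short and understates the fitted falls. With no such factors the median log2 fold change of all genes was 0.16 in TACI short against parental and 0.18 against TACI long, in place of 0.03 and 0.05. TACI long against parental was not moved (0.00 in both).

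Promoter windows were available from RefSeq (GRCh38.p14, 250 bases before to 50 after the annotated start) for 32 of the 37 genes, all but LARS1, VARS1, YARS1, AARS2 and VARS2. The element was searched as TGATGNAA on both strands. It was found in 7 of 16 cytosolic synthetase genes (43.8%), in 1 of 14 mitochondrial ones (YARS2, 7.14%) and in neither scaffold gene, against 4.46% of all 27305 genes with a window and 3.62% of all 35116 windows. The 7 cytosolic sites are shown because they split the enzymes by a feature that the expression values did not use. Capitals mark the element on the gene's own strand, with up to 30 bases before it and 12 after.
AARS1 (chr16:70289674-70289723, minus strand): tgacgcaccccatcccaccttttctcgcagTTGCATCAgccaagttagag
CARS1 (chr11:3057406-3057455, minus strand): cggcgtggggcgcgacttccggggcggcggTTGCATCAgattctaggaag
GARS1 (chr7:30594815-30594864, plus strand): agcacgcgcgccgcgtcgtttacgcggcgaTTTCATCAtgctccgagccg
IARS1 (chr9:92293691-92293740, minus strand): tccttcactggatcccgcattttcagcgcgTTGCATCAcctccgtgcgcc
MARS1 (chr12:57488034-57488083, plus strand): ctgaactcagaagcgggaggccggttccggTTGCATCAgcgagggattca
NARS1 (chr18:57621815-57621852, minus strand): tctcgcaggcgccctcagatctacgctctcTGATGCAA
TARS1 (chr5:33440937-33440986, plus strand): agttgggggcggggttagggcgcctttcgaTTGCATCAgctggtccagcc

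In 6 of these 7 sites the element reads TTGCATCA or its complement TGATGCAA, a form that 37.5% of the 16 cytosolic genes and 1.08% of all genes carried. This narrower form was singled out after the sites had been read. GARS1 carries TTTCATCA instead. Counting the start base as 1, the element lay between -33 and 22 in 6 of the 7 genes and from -187 to -180 in AARS1. A match is a run of letters and does not show that a factor binds there.

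In the parental line the enzymes spanned a wide range of levels per kilobase of exon. NARS1, the asparaginyl enzyme, was highest at 145 CPM per kb and was followed by FARSA, the catalytic subunit of the phenylalanyl enzyme, at 124. The dual-compartment enzymes KARS1 (97.4) and GARS1 (95.1) came next and overlapped each other. CARS1, the cysteinyl enzyme, was the lowest cytosolic gene at 11.8 CPM per kb. IARS2, the mitochondrial isoleucyl enzyme, led its compartment at 42.5 and was 16th of the 37 genes, while SARS2, the mitochondrial seryl enzyme, was last at 2.22. In TACI long, FARSA (120.5) and NARS1 (119) overlapped at the top, and in TACI short NARS1 (128) and GARS1 (103) led. Replicates were close: the median coefficient of variation was 1.58 to 1.91% for cytosolic genes and 2.24 to 3.21% for mitochondrial ones. It was 3.02 to 3.59% over all tested genes at least as abundant as the lowest of the 37. That set was not matched in level to either compartment, so these values do not show that the members vary unusually little.

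**Figure D1:**
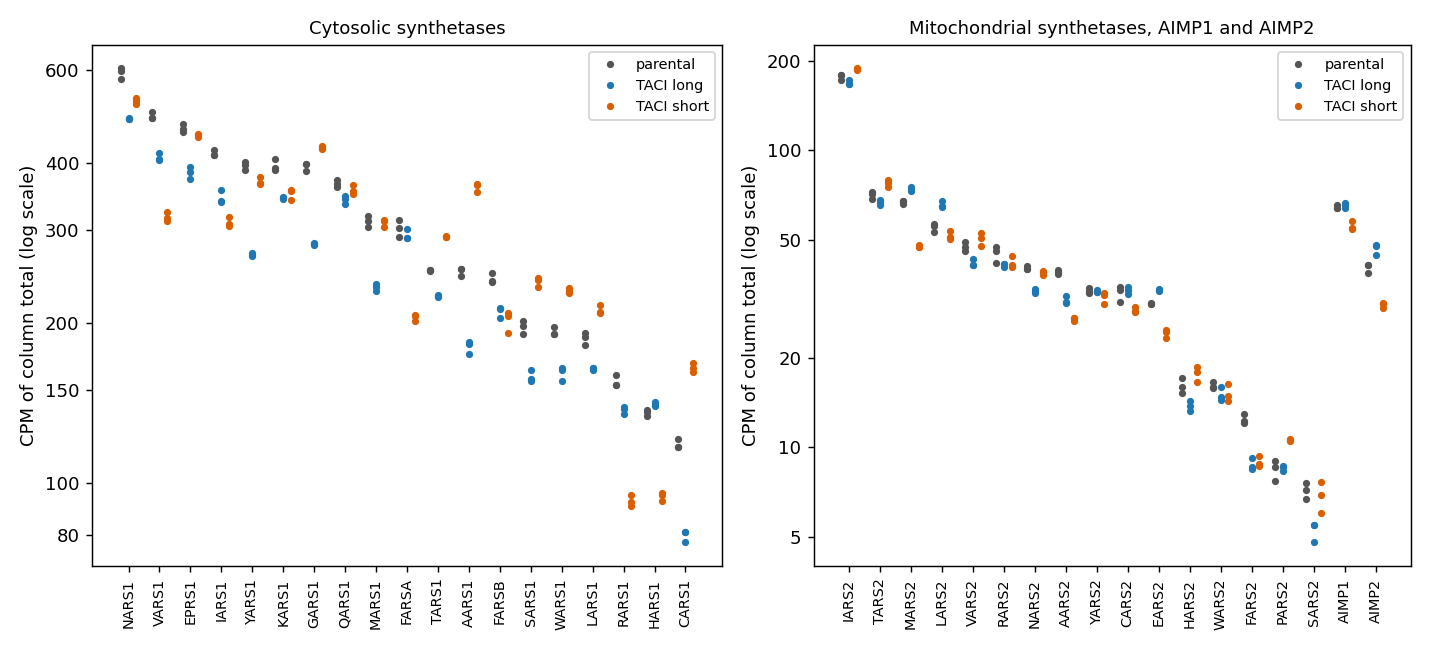
Level of each gene in all 9 libraries, in CPM of the library's total count on a log axis, for the cytosolic synthetases (first panel) and the mitochondrial synthetases with AIMP1 and AIMP2 (second panel), 1 point per library. TACI long sits below parental for most cytosolic genes, while TACI short sits above parental for AARS1 and CARS1 and below it for RARS1, VARS1, FARSA and HARS1.

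Cytosolic synthetases were lower in TACI long than in the parental line, by small amounts and nearly throughout. Of the 19 genes, 16 fell and 0 rose. Their median log2 fold change was -0.26 (range -0.57 to 0.05), where 25.9% of all tested genes were called lower, 25.2% were called higher and the median was 0.00. No member was called at 1.5-fold or more, which 10.7% of tested genes were downward and 6.78% upward. FARSA (-0.04), QARS1 (-0.10) and HARS1 (0.05) did not pass the test. The summed level of the 19 genes was 5899, 5833 and 5858 CPM in parental against 4827, 4851 and 4869 in TACI long, with no overlap. Gene by gene, the CPM values of the groups did not overlap for 17 genes that were lower and 1 that was higher in TACI long, as for 30.6% and 30.1% of all tested genes.

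CARS1 fell most. It measured 117, 117 and 121 CPM in parental and 80.8, 77.4 and 80.8 in TACI long, a log2 fold change of -0.57 ± 0.04 (SE, 3 libraries per group, adjusted p = 9.48e-11). YARS1, the tyrosyl enzyme, went from 403, 388 and 398 CPM to 269, 268 and 271 (-0.56 ± 0.04, adjusted p = 1.16e-10). GARS1, the glycyl enzyme, went from 399, 399 and 387 CPM to 283, 281 and 282 (-0.48 ± 0.04, adjusted p = 6.22e-10). In all 3 genes every TACI long library lay below every parental one, by far more than the spread within a group. AARS1, the alanyl enzyme, fell by 0.47 and MARS1, the methionyl enzyme, fell by 0.41 on the log2 scale. KARS1, the lysyl enzyme, fell less, from 407, 392 and 388 CPM to 346, 343 and 344 (-0.20 ± 0.04). WARS1, the tryptophanyl enzyme, known for its induction by interferon, measured 197, 191 and 191 CPM against 165, 156 and 163 (-0.25 ± 0.04, adjusted p = 2.78e-05).

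In TACI long 6 of 7 genes of complex-bound enzymes (median -0.20) and 10 of 12 of free ones (median -0.27) were called lower, beside 25.9% of all tested genes, and the difference between these classes was not tested. AIMP1 and AIMP2 were not called lower. AIMP1 measured 64, 65.3 and 64.2 CPM in parental and 66.5, 63.9 and 65.3 in TACI long, with overlapping groups (0.02, adjusted p = 0.787). AIMP2 rose from 41.1, 41.3 and 38.7 CPM to 47.6, 44.3 and 48 (0.21 ± 0.05, adjusted p = 0.00131). Exon bases shared with a neighbouring gene make up 28.9% of AIMP2 (EIF2AK1) and 11.6% of AIMP1 (TBCK), and without strand such reads cannot be assigned to one gene.

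Of the 16 mitochondrial synthetases, 7 fell (43.8%), 3 rose (18.8%) and 6 did not pass in TACI long, with a median of -0.09 (range -0.50 to 0.25), where 25.9% of all tested genes were called lower and 25.2% higher. FARS2, the mitochondrial phenylalanyl enzyme, fell from 13, 12.1 and 12.3 CPM to 9.24, 8.47 and 8.6 (-0.50 ± 0.08, adjusted p = 5.78e-06). SARS2 fell from 7.57, 7.21 and 6.71 CPM to 4.8, 5.48 and 5.49 (-0.44 ± 0.10), although 57.0% of its exon bases are shared with other genes, MRPS12 among them. AARS2, the mitochondrial alanyl enzyme, fell from 39.7, 38.5 and 38.9 CPM to 30.8, 32.4 and 30.6 (-0.32 ± 0.05). In these 3 genes the groups did not overlap.

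LARS2, the mitochondrial leucyl enzyme, rose from 56.4, 55.7 and 53 CPM to 64.8, 64.5 and 67.4 in TACI long (0.25 ± 0.04, adjusted p = 4.36e-05). EARS2, the mitochondrial glutamyl enzyme, measured 30.4, 30.7 and 30.3 CPM against 33.6, 34.1 and 33.9 (0.15 ± 0.05, adjusted p = 0.0114). MARS2, the mitochondrial methionyl enzyme, measured 67.5, 67.6 and 66 CPM against 73, 75.1 and 73.5 (0.14 ± 0.04, adjusted p = 0.00888). All 3 had groups apart in CPM, but the calls of EARS2 and MARS2 were lost without parental replicate 2 (adjusted p = 0.0546 and 0.0542), parental replicate 3 (0.0646 and 0.0847) or TACI long replicate 3 (0.064 and 0.0582), which left 1 of the 3 rises. Among the falls, HARS2 (-0.22) and VARS2 (-0.18) were lost without parental replicate 3 (adjusted p = 0.0594 and 0.0519), and RARS2 (-0.13) was lost on leaving out any of 6 libraries (adjusted p = 0.0505 to 0.232), under the replicate block (0.0504), in limma-voom (0.0852), in DESeq2 (0.111), with DESeq2 size factors (0.0632) and with no filter (0.124).

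In TACI short against parental the cytosolic enzymes moved in opposite directions. Of the 19 genes, 12 fell, 4 rose and 3 did not pass, with a median of -0.17 (range -0.88 to 0.40), where 31.1% of all tested genes were called lower and 31.5% higher. The 1.5-fold level was passed by 4 genes downward (RARS1, VARS1, FARSA and HARS1) and by 0 upward, against 7.7% and 18.5% of tested genes. With no scaling factors 7 genes were called higher and the median was -0.04. Without TACI short replicates 2 and 3 the counts were 10 lower and 5 higher. With the replicate number as a block, TARS1, the threonyl enzyme (0.08, adjusted p = 0.0754 without the block), was also called higher (adjusted p = 0.0484). In CPM, 10 genes lay wholly below and 7 wholly above the parental libraries, as did 24.4% and 42.1% of all tested genes. Summed over the 19 genes the level was 5555, 5444 and 5537 CPM, between the other groups and apart from both. These sums do not use the TMM factors, which were higher in TACI short. Divided by those factors, the sums of TACI short and TACI long overlap.

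RARS1, the arginyl enzyme of the complex, fell most, from 153, 153 and 159.8 CPM to 90.5, 92.1 and 95 in TACI short (-0.88 ± 0.04, adjusted p = 1.95e-14). VARS1, the valyl enzyme, fell from 499, 486 and 488 CPM to 324, 312 and 315 (-0.76 ± 0.04, adjusted p = 4.65e-13). FARSA fell from 313, 291 and 302 CPM to 207, 202 and 206 (-0.69 ± 0.04, adjusted p = 4.61e-12). Each of the 3 lay below the parental libraries without overlap. FARSB, the partner subunit of FARSA, fell by 0.39, so the FARSA to FARSB ratio per kb was 1.72 ± 0.0355 (SD, 3 libraries) in parental, 1.93 ± 0.091 in TACI long and 1.4 ± 0.047 in TACI short. HARS1, the histidyl enzyme (18.3% of exon bases shared with WDR55, HARS2 and DND1), fell by 0.65, and IARS1, the isoleucyl enzyme, fell by 0.56.

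AARS1 rose from 253, 245 and 253 CPM to 366, 364 and 354 in TACI short (0.40 ± 0.04, adjusted p = 1.46e-08), and CARS1 reached 165, 168 and 162 CPM (0.35 ± 0.04, adjusted p = 1.13e-07). For both genes TACI long lay lowest and TACI short highest, with 3 groups that did not overlap. SARS1, the seryl enzyme, measured 202, 191 and 198 CPM in parental and 241, 234 and 243 in TACI short (0.15 ± 0.04, adjusted p = 0.0044). WARS1 measured 230.3, 228 and 233 CPM in TACI short (0.13 ± 0.04, adjusted p = 0.0144). The calls of SARS1 and WARS1 were lost without parental replicate 2 (adjusted p = 0.12 and 0.173) or 3 (0.0545 and 0.158), leaving 2 of the 4 rises, and that of WARS1 also without TACI long replicate 1 or 3 (0.0776 and 0.0858).

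The 2 dual-compartment enzymes differed from each other in TACI short. GARS1 measured 428, 426 and 432 CPM, with a fitted log2 fold change of -0.01 (adjusted p = 0.852) that turned to 0.12 with no scaling factors. KARS1 measured 357, 341 and 355 CPM and fell by 0.30 (adjusted p = 2.41e-06). Of the 7 complex-bound enzymes 6 fell and 0 rose (median -0.17), while the 12 free enzymes held all 4 rises and 6 falls (median -0.12, or 0.01 with no scaling factors). Without TACI short replicates 2 and 3, 4 complex-bound enzymes were called lower, and with no scaling factors 3 were lower and 1 higher (median -0.04). MARS1 (-0.14) and QARS1 (-0.16) were the complex-bound calls lost without those libraries (adjusted p = 0.131 and 0.0612). The difference between complex-bound and free enzymes was not tested. AIMP1 fell to 54.9, 54.5 and 57.9 CPM (-0.34 ± 0.05, adjusted p = 8.51e-07) and AIMP2 to 30.3, 29.4 and 30.6 (-0.55 ± 0.05, adjusted p = 3e-09), both below every parental library.

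Mitochondrial synthetases were mostly lower in TACI short than in parental: 10 fell, 1 rose and 5 did not pass, with a median of -0.21 (range -0.66 to 0.21). Of all tested genes 31.1% were called lower and 31.5% higher. With no scaling factors 5 were called lower and 3 higher, and without TACI short replicates 2 and 3 the counts were 8 and 0. AARS2 fell to 27.2, 27.2 and 26.7 CPM (-0.66 ± 0.05, adjusted p = 3.23e-11), MARS2 fell to 48.1, 47.2 and 47.4 (-0.62 ± 0.04, adjusted p = 2.24e-11) and FARS2 fell to 8.66, 8.8 and 9.39 (-0.60 ± 0.08, adjusted p = 2.78e-07). These 3 passed 1.5-fold and their groups did not overlap. PARS2, the mitochondrial prolyl enzyme, was the single rise, from 7.72, 8.98 and 8.59 CPM to 10.5, 10.7 and 10.6 (0.21 ± 0.08, adjusted p = 0.0244). Its call was lost without parental replicate 1 (0.209) or 3 (0.0766), TACI long replicate 1 (0.0597) or 3 (0.0633), without TACI short replicates 2 and 3 (0.0594) and in DESeq2 (0.0712). WARS2 (-0.21) was lost without TACI short replicate 2 (0.0791), and NARS2 (-0.18) and YARS2 (-0.20) without replicates 2 and 3 together (0.0676 and 0.0639). IARS2, TARS2, VARS2, HARS2 and SARS2 did not pass, at -0.04, 0.00, -0.04, 0.01 and -0.20. The sign of IARS2 turned with no scaling factors (0.09).

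**Figure D2:**
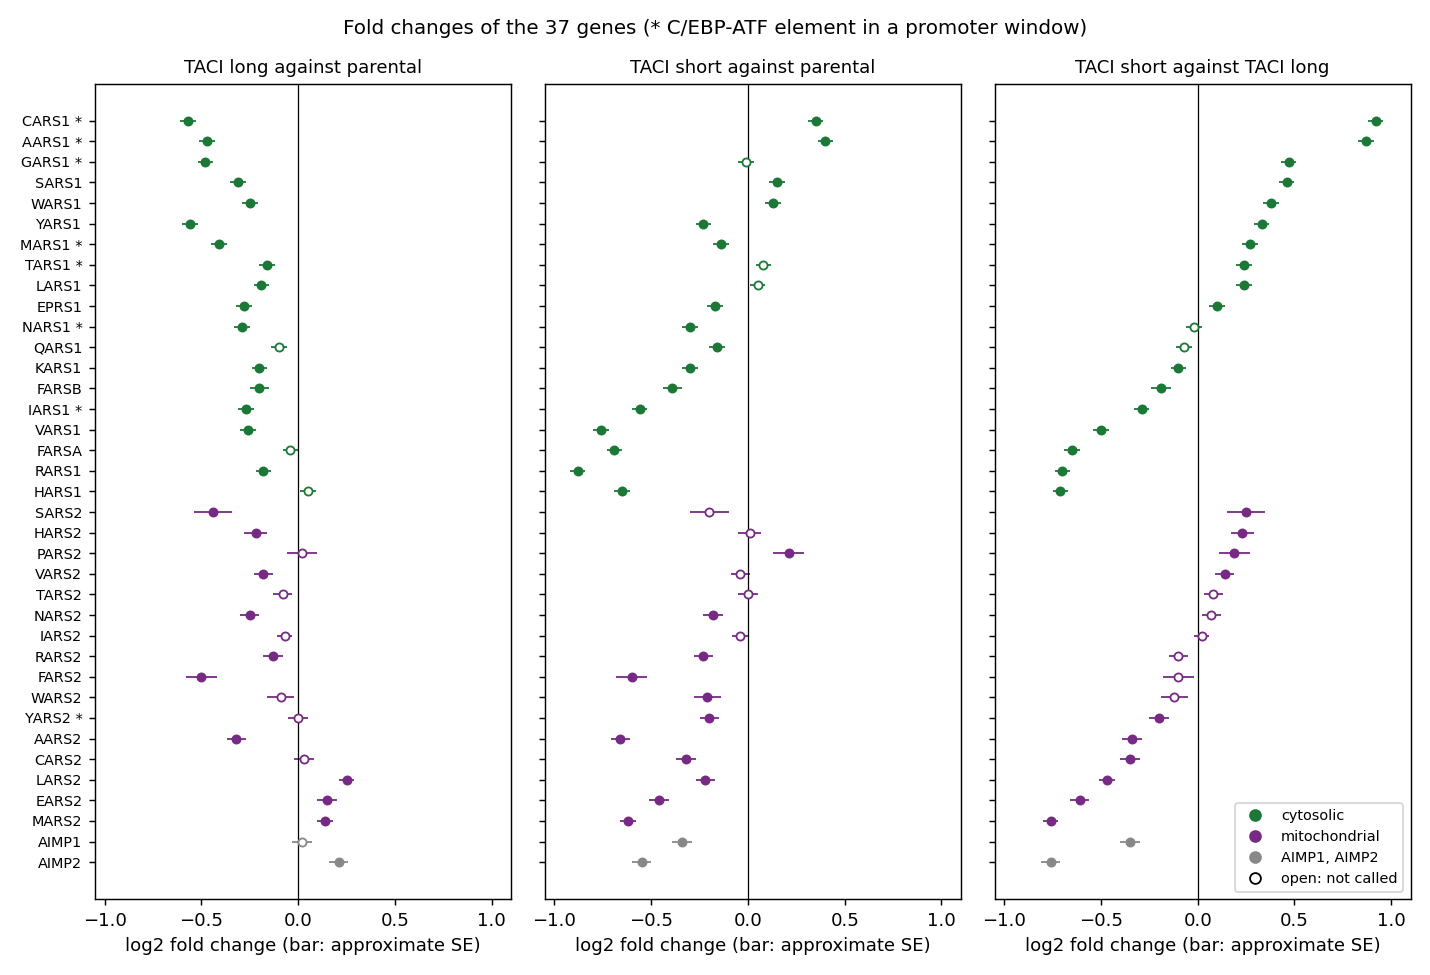
Fitted log2 fold changes of the 37 genes in the 3 comparisons, with bars of approximate SE, filled where called and open where not; an asterisk marks a gene with the C/EBP-ATF element in a promoter window. Cytosolic genes lie almost entirely left of 0 in TACI long against parental and spread from -0.71 to 0.92 in TACI short against TACI long.

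The lines given the short and the long form differed from each other in most enzymes. Of 19 cytosolic genes, 10 were higher and 7 lower in TACI short, with a median of 0.10 (range -0.71 to 0.92), where 35.2% of all tested genes were called higher and 33.6% lower. The 1.5-fold level was passed by 2 genes upward and 3 downward, against 23.0% and 11.1% of tested genes. Without TACI short replicates 2 and 3 the counts were 10 higher and 6 lower. With no scaling factors the cytosolic median was 0.23. In CPM the groups did not overlap for 12 genes that were higher and 5 that were lower, as for 43.8% and 27.8% of all tested genes. This comparison shares its TACI short libraries with one of the earlier comparisons and its TACI long libraries with the other, so the 3 are not independent.

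CARS1, at 80.8, 77.4 and 80.8 CPM in TACI long and 165, 168 and 162 in TACI short, stood highest (0.92 ± 0.04, adjusted p = 5.79e-15). AARS1 followed, at 175, 183 and 184 CPM against 366, 364 and 354 (0.87 ± 0.04, adjusted p = 1.41e-14). GARS1 was next, at 283, 281 and 282 CPM against 428, 426 and 432 (0.47 ± 0.04, adjusted p = 3.46e-10). No TACI short library of these genes came near a TACI long one. SARS1 (0.46), WARS1 (0.38), YARS1 (0.33), MARS1 (0.27), LARS1 (0.24), TARS1 (0.24) and EPRS1 (0.10) were also called higher. The call of EPRS1, the enzyme that charges both glutamate and proline tRNA, was lost on leaving out any of 8 libraries (adjusted p = 0.0765 to 0.324). For MARS1, 12.4% of exon bases are shared with ARHGAP9 and DDIT3, and DDIT3 itself was higher in TACI short by a log2 fold change of 2.35.

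HARS1 was lowest relative to TACI long, at 139.6, 141 and 142 CPM against 95.7, 92.5 and 95 in TACI short (-0.71 ± 0.04, adjusted p = 8.44e-13). RARS1 measured 139, 138 and 135 CPM against 90.5, 92.1 and 95 (-0.70 ± 0.04, adjusted p = 6.18e-13). FARSA measured 289, 290 and 301 CPM against 207, 202 and 206 (-0.65 ± 0.04, adjusted p = 7.84e-12). Their level in TACI short lay outside both other groups, while in TACI long HARS1 and FARSA had not passed the test and RARS1 had fallen by 0.18. VARS1 (-0.50), IARS1 (-0.29), FARSB (-0.19) and KARS1 (-0.10) were also called lower. FARSB overlapped between the lines and lost its call with no scaling factors (-0.06, adjusted p = 0.144). KARS1 overlapped between the lines, turned to 0.03 with no scaling factors and lost its call without parental replicate 3, TACI long replicate 1 or 3, or TACI short replicate 2 (adjusted p = 0.0554 to 0.124). NARS1 (-0.02) and QARS1 (-0.07) did not pass, and both were positive with no scaling factors (0.11 and 0.06).

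Among mitochondrial genes 6 were lower, 4 higher and 6 not called in TACI short against TACI long, with a median of -0.10 that became 0.03 with no scaling factors. These shares, 37.5% and 25%, stand beside 33.6% and 35.2% of all tested genes, and without TACI short replicates 2 and 3 the counts were 6 lower and 3 higher. MARS2 measured 73, 75.1 and 73.5 CPM against 48.1, 47.2 and 47.4 (-0.76 ± 0.04, adjusted p = 3.65e-13). EARS2 measured 33.6, 34.1 and 33.9 CPM against 24.4, 23.4 and 24.9 (-0.61 ± 0.05, adjusted p = 1.86e-10), and LARS2 64.8, 64.5 and 67.4 against 50.4, 53.6 and 51.2 (-0.47 ± 0.04, adjusted p = 2.26e-09). All 3 were highest in TACI long of the 3 groups and had no overlap between the lines. AIMP2 behaved likewise, with -0.76 ± 0.05 (adjusted p = 6.66e-12), and AIMP1 was lower by -0.35 ± 0.05 (adjusted p = 3.05e-07).

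The mitochondrial genes that were higher in TACI short changed little. SARS2 measured 4.8, 5.48 and 5.49 CPM against 6.91, 7.64 and 6.01 (0.25 ± 0.10, adjusted p = 0.0343). HARS2, the mitochondrial histidyl enzyme, measured 13.3, 14.3 and 13.8 CPM against 16.6, 18.6 and 17.9 (0.23 ± 0.06, adjusted p = 0.00242). PARS2 measured 8.67, 8.33 and 8.6 CPM against 10.5, 10.7 and 10.6 (0.19 ± 0.08, adjusted p = 0.0376). The HARS2 call was lost without TACI short replicates 2 and 3 (0.085), and 21.8% of its exon bases are shared with HARS1 and ZMAT2. The calls of SARS2 (0.0549 to 0.203), PARS2 (0.0699 to 0.162) and VARS2 (0.14, lost at 0.0501 to 0.191) were each lost on leaving out any of 7 or 8 libraries. With any of 7 of the 9 libraries left out (all but TACI short replicates 2 and 3), HARS2 was the 1 gene called higher.

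Where one amino acid has an enzyme gene in each compartment, the 2 genes of a pair can be set against each other within a library, which removes the scaling. There were 13 such pairs. The cytosolic fold lay below the mitochondrial one in 11 of 13 pairs in TACI long against parental, in 6 of 13 in TACI short against parental and in 5 of 13 in TACI short against TACI long. In TACI long the log2 differences ran from -0.6 to 0.27. Those of asparagine (-0.04), arginine (-0.05), valine (-0.07) and threonine (-0.08) were small, and no difference was tested. The ratio of the summed levels, read here only between groups, was 8.43, 8.34 and 8.38 in parental, 7.21, 7.12 and 7.2 in TACI long and 8.3, 8.19 and 8.29 in TACI short. TACI long (7.17 ± 0.049, SD, 3 libraries) lay far from the other groups. Parental (8.39 ± 0.044) and TACI short (8.26 ± 0.0619) were close, with no overlap.

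Behind the similar sums, single pairs went in different directions in TACI short. For alanine the AARS1 to AARS2 ratio per kb was 6.13 ± 0.0769 (SD, 3 libraries) in parental, 5.53 ± 0.192 in TACI long and 12.8 ± 0.0874 in TACI short. For cysteine it was 3.72 ± 0.181, 2.46 ± 0.0976 and 5.93 ± 0.202, and for methionine 1.99 ± 0.0492, 1.36 ± 0.0238 and 2.79 ± 0.029. All 3 pairs were lowest in TACI long and highest in TACI short. The arginine pair was instead lowest in TACI short, at 2.58 ± 0.226, 2.49 and 1.64 ± 0.0487. So were histidine, at 3.41, 4.12 and 2.16, and valine, at 14.4, 13.7 and 8.75. Histidine averaged highest in TACI long, while arginine and valine averaged highest in parental. For isoleucine the ratio passed from 1.32 ± 0.0214 to 0.927 ± 0.0225 in TACI short, the single pair in which the mitochondrial gene came to exceed the cytosolic one per kb.

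**Figure D3:**
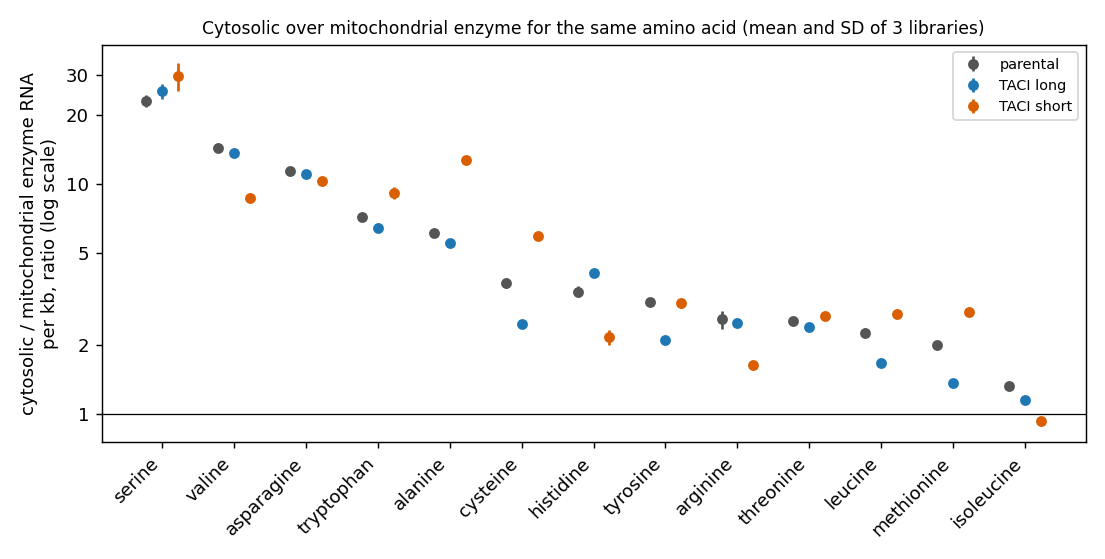
Ratio of the cytosolic to the mitochondrial gene of each of the 13 amino acid pairs, in CPM per kb of exon on a log axis, by group, with points at the mean and bars of SD over 3 libraries. The alanine, cysteine and methionine ratios are highest in TACI short, and the histidine, arginine, valine and isoleucine ratios are lowest there.

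Divided by the promoter element, the 7 cytosolic genes that carry it were all called lower in TACI long (median -0.41, range -0.57 to -0.16). So were 6 of the 9 genes with a window and no element (median -0.20), beside 25.9% of all tested genes. In TACI short against parental 2 of the 7 rose and 3 fell (median -0.01), against 2 and 7 of the 9 (median -0.30). The rises of the 7 were near the share of all tested genes called higher (31.5%), and 31.1% were called lower. With no scaling factors 4 of the 7 rose and 2 fell (median 0.12), against 2 and 5 of the 9 (median -0.17). Without TACI short replicates 2 and 3 the balance also turned, to 3 of the 7 higher and 2 lower (median 0.03), against 2 and 6 of the 9 (median -0.24). In TACI short against TACI long 35.2% of all tested genes were called higher and 33.6% lower. Of the 7 genes 5 were higher there and 1 lower (median 0.27), against 3 and 5 of the 9 (median -0.10). With no scaling factors these were 6 and 1 (median 0.40), against 4 and 3 (median 0.03). Without TACI short replicates 2 and 3 they were 5 and 1 (median 0.32), against 3 and 4 (median -0.05). IARS1, which carries TTGCATCA at -13 to -6, was lower in TACI short in both comparisons (-0.56 and -0.29), and SARS1 and WARS1, with no element in their windows, were higher in both. YARS2, the 1 mitochondrial gene with the element, was at 0.00 in TACI long and -0.20 in TACI short against parental. In the windows searched, genes with and without the element were found among both the called rises and the called falls in TACI short. The rises of SARS1 and WARS1 against parental were among the calls lost on leaving out a parental library. Sequence outside the windows was not searched.

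Other genes of the amino acid response were read from a list of 23. In TACI long 17 fell and 5 rose (median -0.30), where 25.9% of all tested genes were called lower and 25.2% higher. In TACI short against parental 17 rose and 2 fell (median 0.45), beside 31.5% and 31.1% of all tested genes. In TACI short against TACI long 19 were higher and 2 lower (median 1.09), beside 35.2% and 33.6%. Without TACI short replicates 2 and 3 the last 2 results were 18 and 1, and 20 and 2. ATF4 measured 531, 520.5 and 517 CPM in parental, 212, 225 and 208 in TACI long and 566, 539 and 564 in TACI short. It fell by 1.28 ± 0.05 on the log2 scale in TACI long (adjusted p = 1.14e-16). ATF4 was not called in TACI short against parental (-0.04, adjusted p = 0.46). ASNS, asparagine synthetase, measured 303, 288 and 284, then 163, 166 and 163, then 558, 548 and 556 CPM in the same order, and was higher in TACI short than in TACI long by 1.63 ± 0.04 (adjusted p = 3.11e-19). PYCR1, of proline synthesis, and PSAT1 and PHGDH, of serine synthesis, rose by 1.02, 0.89 and 0.87 in TACI short against parental. The list's median change exceeded that of the cytosolic synthetases in size in each comparison. In TACI short against parental the medians had opposite signs, 0.45 for the list and -0.17 for the cytosolic synthetases. These differences were not tested.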

How the data were processed

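Values were whole-number counts per gene, deposited by the authors without normalization. The submitters' processing notes name FastQC, STAR 2.4.0h, HTSeq and hg38, while per the file headers the columns follow the layout of featureCounts. Annotation release, strand setting and filters are not given in the sources used here. Per the labels, Nextera XT kits were used, and these do not record the strand. Replicates were not copies of one another (chi-square per degree of freedom 2.31 to 16.2).

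Genes were kept by filterByExpr (minimum count 10, minimum total 15) and fitted over all 9 libraries by edgeR 4.0.16 (R 4.3.3) with TMM factors and its quasi-likelihood test in robust form (residual degrees of freedom: 6; common BCV, the biological coefficient of variation: 0.0792), adjusted by Benjamini-Hochberg over 16672 genes. Deviations of same-numbered libraries correlated at 0.434, 0.213 and 0.177 between parental and TACI short, so the numbers may pair these samples. Parental replicate 3 correlated more with TACI short replicate 2 (0.232), and TACI long replicate 3 with TACI short replicate 1 reached 0.346. Between the other groups same-numbered libraries ran from -0.272 to 0.113. The main fit has no block, so its p-values ignore any pairing, and a replicate block was run as an alternative. The labels give no shared source. The script was tested on simulated data. Standard errors are approximate, from the F statistic. The members, lists and tests were chosen with earlier results of these data known. Values in every library are given for TNFRSF13B, GARS1, KARS1, AIMP1, AIMP2, WARS1 and, in each comparison, the 3 largest called changes per direction and compartment. Genes of other lists are named as up to 3 with the lowest adjusted p. Alternatives were other scaling factors and filters, limma-voom (limma 3.58.1), DESeq2 1.42.0, a replicate block, the groups compared alone and left-out libraries. Figures used matplotlib 3.10.9.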

Additional observations from a re-analysis of the deposited data

How the results depend on the processing

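The 16 falls of cytosolic genes in TACI long stayed at 16 to 17 over 19 alternatives, and the count of rises at 0. With upper-quartile factors and with no factors, respectively, TACI short against parental had 7 and 7 cytosolic rises, a cytosolic median of -0.09 and -0.04 and a mitochondrial median of -0.13 and -0.08. The same 2 settings gave, for TACI short against TACI long, 7 and 7 mitochondrial genes higher, cytosolic medians of 0.19 and 0.23 and mitochondrial medians of -0.01 and 0.03. With no factors 3 mitochondrial genes rose and 5 fell in TACI short against parental. All genes split into 5256 higher and 5179 lower calls in TACI short against parental, 6320 and 4330 with upper-quartile factors and 6873 and 3771 with no factors. Against TACI long the split was 5870 and 5604, then 6820 and 4770, then 7216 and 4345. Signs turned for GARS1 (0.07 and 0.12 with upper-quartile and no factors) and IARS2 (0.09 with no factors) against parental. Against TACI long they turned for NARS1 (0.07 and 0.11), KARS1 (0.03 with no factors) and QARS1 (0.06 with no factors). Mitochondrial rises in TACI short against parental were 0 with no filter, in DESeq2 and without TACI short replicates 2 and 3, and those against TACI long 1 with no filter and 2 in DESeq2; the cause was not tested. With each library left out, mitochondrial rises ran from 1 to 3 in TACI long, 0 to 1 in TACI short against parental and 1 to 4 against TACI long, and cytosolic rises in TACI short against parental from 2 to 6. A lone sample per group, where left, was assumed to vary like the other groups. A replicate block gave 17 cytosolic falls in TACI long, and 5 rises and 12 falls in TACI short against parental, and moved no count by over 1.5 times. Among the members it otherwise changed the calls of QARS1 (0.0209) and RARS2 (0.0504) in TACI long.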

Other observations

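Other genes of mitochondrial translation were read from 2 further lists, one of the ribosome and one of further tRNA charging steps and elongation. Of 78 genes of the mitochondrial ribosome, 20 fell (25.6%) and 13 rose (16.7%) in TACI long (median log2 fold change -0.01). Of all tested genes 25.9% were called lower there and 25.2% higher. In TACI short against parental 68 fell and 3 rose (median -0.41), where 31.1% of all tested genes were called lower and 31.5% higher. With no scaling factors the last counts were 60 and 7 (median -0.28), and without TACI short replicates 2 and 3 they were 62 and 3. Among them MRPS7 and MRPL2, proteins of the small and the large subunit, fell by 0.92 and 0.95 on the log2 scale. Of 9 genes of mitochondrial tRNA charging and elongation, 8 fell in TACI short against parental (median -0.47), and 6 did with no scaling factors or without those 2 libraries. GFM1, an elongation factor, fell by 0.60, and QRSL1, a subunit of the enzyme that completes glutamine tRNA charging in mitochondria, fell by 0.66.

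Of 6 cytosolic elongation factor genes, 3 fell in TACI short against parental and 0 rose (median -0.28), 1 rising with no scaling factors. Of all tested genes 31.1% were called lower and 31.5% higher. Among the 6, 1 gene averaged at most 2 CPM in any group and was not called. EEF1E1, an elongation factor protein that is also the third scaffold of the synthetase complex, fell by 0.24 in TACI long and by 0.73 in TACI short against parental.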
